A study of Caenorhabditis elegans with 2 samples.

Results

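The mitochondrial ribosome of Caenorhabditis elegans is built from proteins encoded by nuclear genes named mrpl (large subunit) and mrps (small subunit). By the rule that the name of a protein-coding gene starts with mrpl- or mrps- in the Ensembl release 115 annotation (assembly WBcel235, the same as ce11), there were 70 such genes among 19973 nuclear protein-coding genes, 41 of the large and 29 of the small subunit. A rule by name leaves out proteins of this ribosome that carry other names, such as dap-3. The 70 genes were compared with 78 genes for cytosolic ribosomal proteins, named rpl- or rps-. The data were ChIP-seq peak lists for PHA-4, the FoxA-family transcription factor of the worm foregut. All samples formed 1 group of 2 biological replicates. They were whole embryos of mixed stages, male and female pooled, from strain OP37, which carries unc-119(ed3) III and the array wgIs37 that supplies PHA-4 fused to eGFP. The labels do not name the promoter that drives the fusion. Signal from whole embryos cannot be assigned to a cell type, and no untagged or untreated group was analysed here.

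Mitochondrial ribosomal proteins are made in the cytosol and imported, and the ribosomes they form translate the few respiratory chain proteins that the mitochondrial genome encodes. In worms, knock-down of mrps-5 is known to extend lifespan and to switch on the mitochondrial unfolded protein response. Many worm genes lie in operons, in which the promoter before the first gene drives a transcript that trans-splicing cuts into separate mRNAs, so that a later gene need not have a promoter of its own. FoxA proteins recognise words of the type TGTTTAC and TGTTTGC.

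A gene was called bound where the summit of an entry lay between 1000 bp before and 200 bp after a 5′ end of one of its protein-coding transcripts. The thresholded list, which came from the authors' procedure on reproducibility between replicates, held 2177 entries. The pooled list, called on both replicates together, had 21931 entries and each replicate list 30000. Signal is the authors' value for an entry against control reads, which ranks entries within a list and is not scaled between lists. In the thresholded list it lay between 35.9 and 348, with a median of 54.4. The tagged gene pha-4 had an entry of signal 190.0 in its own window. Read totals were not used here and the depth is unknown. The intervals given with shares are exact binomial 95% intervals, which cover the counting of genes only.

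The sequences under 6 thresholded summits are shown first, because they carry the values and words described later. Each is the summit with 100 bp on both sides on ce11, from the RefSeq genome of the same assembly, written 5′ to 3′ on the strand of the mitochondrial gene. Capitals mark every TGTTTAC and every TGTTTGC, the repeat GAGAGA and the word CTGCGTC on either strand, so that TGTTTGC on the other strand reads GCAAACA and CTGCGTC reads GACGCAG. The mrps-7 window (chrIV:14767800-14768000, minus strand) belongs to the strongest entry. The windows of mrps-17 (chrIII:6431820-6432020, minus strand), mrpl-28 (chrII:156024-156224, minus strand) and mrpl-45 (chrIII:1202252-1202452, minus strand) hold FoxA-type words. The mrpl-40 window (chrIII:87291-87491, plus strand) holds GAGAGA, and the mrpl-49 window (chrV:12728369-12728569, plus strand), which is shared with the cytosolic gene rpl-28, holds none of these words.
mrps-7: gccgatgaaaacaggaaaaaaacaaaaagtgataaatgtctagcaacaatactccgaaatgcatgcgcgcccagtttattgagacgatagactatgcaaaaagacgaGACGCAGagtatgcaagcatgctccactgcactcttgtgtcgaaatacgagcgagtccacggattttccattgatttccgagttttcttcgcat
mrps-17: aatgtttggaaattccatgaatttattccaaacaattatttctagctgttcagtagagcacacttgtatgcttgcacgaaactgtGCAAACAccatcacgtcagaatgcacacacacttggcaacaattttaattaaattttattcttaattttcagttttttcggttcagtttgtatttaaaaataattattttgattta
mrpl-28: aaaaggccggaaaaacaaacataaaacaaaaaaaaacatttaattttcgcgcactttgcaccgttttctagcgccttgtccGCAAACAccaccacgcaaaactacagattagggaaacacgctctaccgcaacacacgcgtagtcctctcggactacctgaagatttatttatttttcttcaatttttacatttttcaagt
mrpl-45: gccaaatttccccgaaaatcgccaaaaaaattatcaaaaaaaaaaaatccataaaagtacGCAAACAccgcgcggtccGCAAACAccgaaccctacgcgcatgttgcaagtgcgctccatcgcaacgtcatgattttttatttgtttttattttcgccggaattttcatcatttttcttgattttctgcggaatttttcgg
mrpl-40: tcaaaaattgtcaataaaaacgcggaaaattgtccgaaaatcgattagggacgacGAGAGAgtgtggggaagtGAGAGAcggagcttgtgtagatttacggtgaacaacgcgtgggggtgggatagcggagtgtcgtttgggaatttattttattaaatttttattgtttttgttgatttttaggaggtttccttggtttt
mrpl-49: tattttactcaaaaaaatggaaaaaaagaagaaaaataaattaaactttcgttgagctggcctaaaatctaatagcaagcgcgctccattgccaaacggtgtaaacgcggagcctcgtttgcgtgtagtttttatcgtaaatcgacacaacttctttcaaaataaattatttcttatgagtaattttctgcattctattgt

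PHA-4 was bound at a minority of mitochondrial ribosomal protein genes and at most cytosolic ones. A thresholded entry lay in the window of 13 of the 70 mitochondrial genes (18.6%, 10.3 to 29.7), against 64 of the 78 cytosolic genes (82.1%, 71.7 to 89.8) and 9.16% of all protein-coding genes. The mitochondrial share lay above that of all genes and far below that of cytosolic ribosomal proteins, and its interval reached neither. Under narrower definitions the interval did hold the share of all genes. It was 5.07 to 21.3% against 6.64% for the nearest 5′ end only, and 6.05 to 23% against 7.46% for a window of 500 bp. The large subunit had 10 of 41 genes bound (24.4%, 12.4 to 40.3) and the small subunit 3 of 29 (10.3%, 2.19 to 27.4). These 2 intervals overlapped widely, and that of the small subunit held the share of all genes. Among the cytosolic genes the large subunit had 38 of 47 bound and the small subunit 26 of 31.

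In the pooled list, which includes weak entries, 41 of the 70 mitochondrial genes had an entry (58.6%, 46.2 to 70.2), against 74 of 78 cytosolic genes (94.9%) and 36.5% of all genes. There the subunits were nearly level, with 23 of 41 large-subunit genes (56.1%) and 18 of 29 small-subunit genes (62.1%). Of the 18 small-subunit genes with a pooled entry 15 had no thresholded one (83.3%), against 74.9% of all genes with a pooled entry. The strongest signals of these 15 lay between 10.9 and 32.3. In the large subunit it was 13 of 23 (56.5%). The median pooled signal over genes with an entry was 26.9 for mitochondrial ribosomal proteins, 77.4 for cytosolic ones and 18.4 for all genes.

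**Figure D1:**
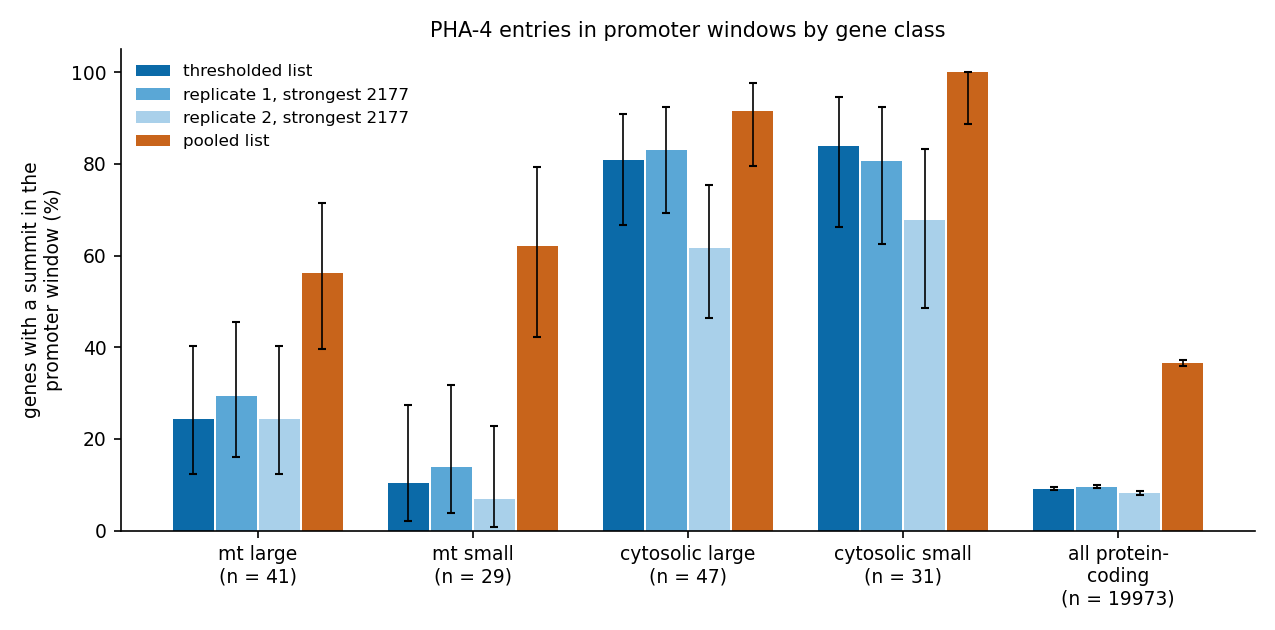
Share of genes (%) with a summit in the promoter window, by gene class, in the thresholded list, the 2177 strongest entries of each replicate and the pooled list; bars are shares and lines exact binomial 95% intervals over genes. In the thresholded list the mitochondrial large and small subunits stood at 24.4% and 10.3%, the cytosolic subunits at 80.9% and 83.9%, and all protein-coding genes at 9.16%.

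Each of the 13 bound genes had a single thresholded entry, and the 13 entries were distinct. Their median signal was 64.5 (44.3 to 116), against 87.7 for the 61 entries at cytosolic ribosomal protein genes and 55.9 for the 1363 entries in any promoter window. In the ranking of 2177 entries by signal their median place was 775. None reached the strength of the leading cytosolic genes rpl-3 (348), rpl-20 (240.3) and rps-1 (240.0), and the strongest, at mrps-7, stood at place 135.

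**Figure D2:**
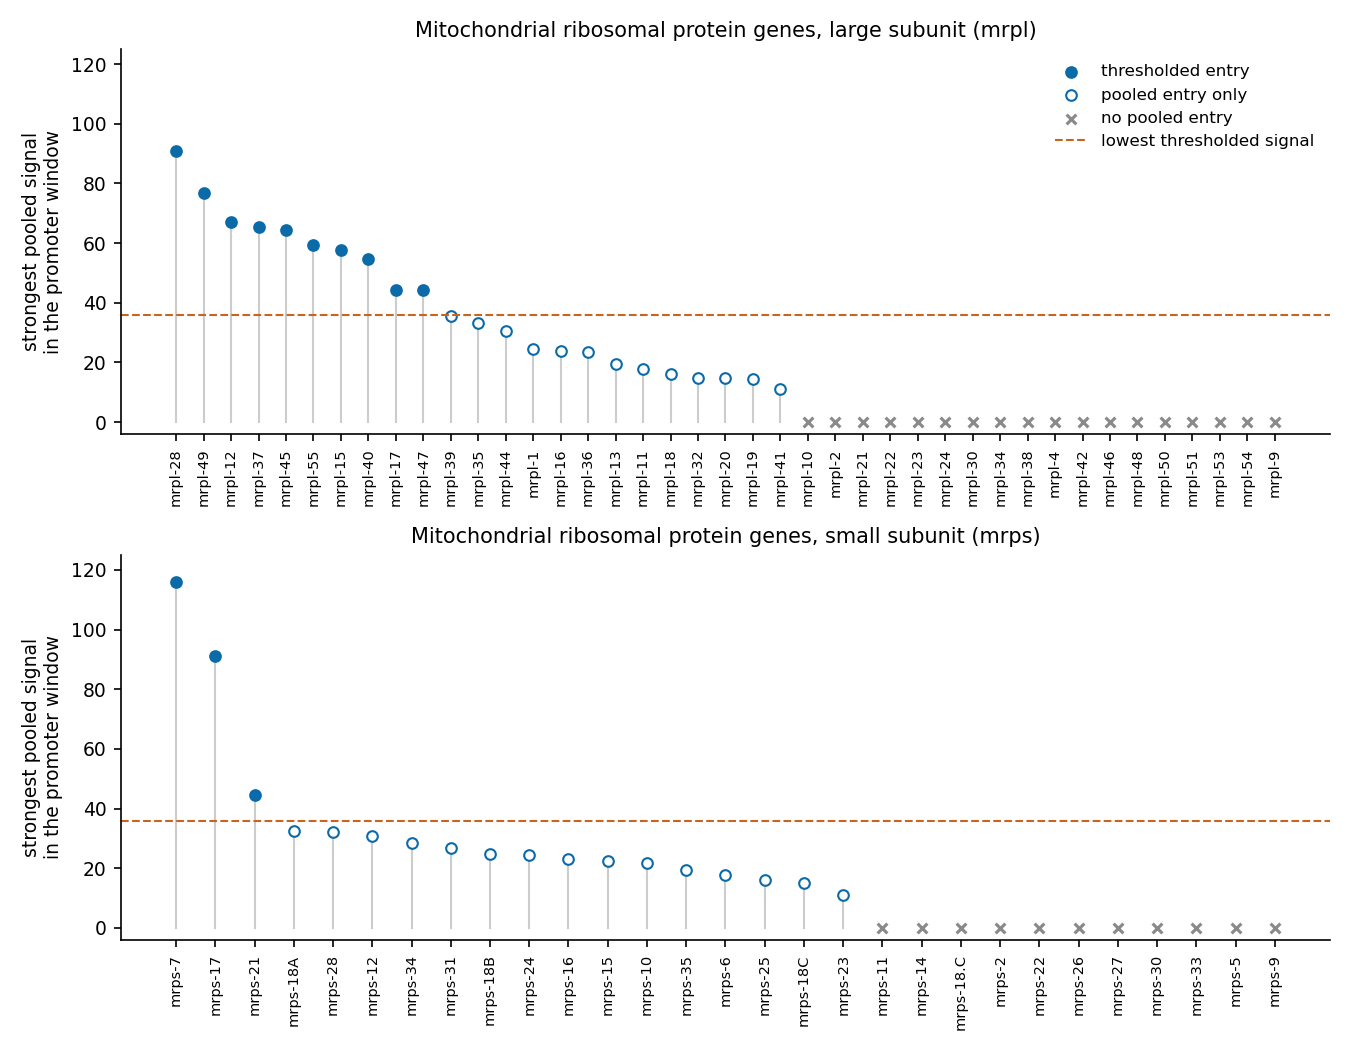
Signal of the strongest pooled entry in the promoter window of each of the 41 large-subunit (top) and 29 small-subunit (bottom) genes, ordered by signal; filled points have a thresholded entry, open points a pooled entry only, and crosses mark genes with no pooled entry. The dashed line is the lowest thresholded signal, 35.9, under which mrpl-39 lies at 35.7.

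Among the 3 bound small-subunit genes, mrps-7 encodes the counterpart of the bacterial protein that organises the head of the small subunit. Its entry had a signal of 116 in the pooled list, 70.3 in replicate 1 and 44.2 in replicate 2, and the summit lay at -170 bp from the 5′ end (negative is upstream). The same window served Y57G11C.3, which starts on the opposite strand. At mrps-17, the counterpart of a bacterial protein that binds the body of the small subunit, the signal was 91.02 pooled, 27.9 in replicate 1 and 69.1 in replicate 2, with the summit at -122 bp. The opposite-strand gene txdc-9, at -258 bp, and popl-1, which encodes an RNase P and MRP subunit, at -986 bp, had the same summit in their windows. So the 2 strongest small-subunit entries had opposite orders in the replicates.

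The third small-subunit gene, mrps-21, was bound only at the far edge of its window. The entry (chrIV:4660347-4660610) had a signal of 44.6 pooled and 28.2 in replicate 1, the summit lay at -962 bp, and the nearest 5′ end was that of the gene before it on the same strand, F29B9.11 (-278 bp). The opposite-strand gene jmjd-1.2, which encodes a histone demethylase, had its 5′ end at -512 bp from it. In replicate 2 the overlapping entry had a signal of 26.4 with a summit 130 bp from that of replicate 1, and the strongest replicate 2 entry inside the mrps-21 window was a different one of 6.67.

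The large-subunit entries were led by mrpl-28, whose product is the counterpart of bacterial L28. Its signal was 91.02 pooled, 59.7 in replicate 1 and 32.05 in replicate 2, at -115 bp, with no other gene in the window. The next, mrpl-49, encodes a protein with no bacterial counterpart, and its entry had a signal of 76.9 pooled and 38.0 in each replicate. That summit lay at -162 bp from mrpl-49 and at -357 bp from rpl-28, a cytosolic large-subunit gene on the opposite strand. This was the only thresholded entry that lay in windows of both a mitochondrial and a cytosolic ribosomal protein gene.

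The stalk protein gene mrpl-12, whose bacterial counterpart L7/L12 recruits translation factors, had an entry (chrIII:10707108-10707371) of signal 66.97 (35.6 in replicate 1, 31.7 in replicate 2), but its summit lay at -521 bp and nearer to Y39A1A.22 and Y39A1A.21 on the opposite strand (-212 and -218 bp). Likewise the mrpl-37 entry (chrII:13575596-13575859), with 65.4 pooled, 37.97 in replicate 1 and 25.8 in replicate 2, lay at -660 bp and at -197 bp from lin-38, a cell-fate regulator of the synMuv A class. The mrpl-45 entry (64.5 pooled, 42.02 and 25.9) lay at -344 bp and at -194 bp from Y119D3B.12. These 3 summits stood closer to the divergent neighbour than to the mitochondrial gene. The product of mrpl-45 sits at the membrane face of the ribosome in mammals.

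Of the others, mrpl-55 had 59.3 pooled (27.1 in replicate 1, 30.3 in replicate 2) at -112 bp and mrpl-15 had 57.6 (18.5 and 39.6) at -606 bp, both with no other gene in the window. These entries spanned chrIV:443741-444004 and chrI:1435541-1435804. The mrpl-40 entry had 54.6 (23.9 and 32.3) at -168 bp and at -10 bp from F54C4.4. The weakest entries were those of mrpl-17 (chrI:3162496-3162759) at 44.4 and mrpl-47 (chrI:5244143-5244406) at 44.3. The mrpl-47 summit lay 8 bp before the 5′ end, the closest of all, and its signal was 22.1 in replicate 1 and 22.5 in replicate 2. Counterparts of bacterial L15, L17 and L29 are encoded by mrpl-15, mrpl-17 and mrpl-47.

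Numbers up to 36 in the large and 21 in the small subunit follow the bacterial proteins, and higher numbers were given mostly to proteins found in mitochondria only, with mrpl-47 among the exceptions. Bound genes were 4 of 24 with a bacterial number and 6 of 17 with a higher one in the large subunit. In the small subunit they were 3 of 17 and 0 of 12. The direction was thus opposite in the subunits, and all 4 intervals overlapped (4.74 to 37.4%, 14.2 to 61.7%, 3.80 to 43.4% and 0 to 26.5%).

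All 13 summits lay upstream of the mitochondrial gene. All 64 cytosolic summits were upstream of their gene too, and 81 of the 1830 bound genes over the annotation had a downstream one. The 13 mitochondrial summits also lay in sequence between protein-coding genes, which was not counted over all genes. The median distance was 170 bp from the 5′ end, against 291.5 bp for cytosolic ribosomal protein genes and 237 bp for all bound genes. Of the mitochondrial summits 8 of 13 lay within 200 bp (61.5%, 31.6 to 86.1), against 8 of 64 cytosolic ones (12.5%, 5.55 to 23.2) and 43.9% over all bound genes. The cytosolic summits gathered between -361.75 bp (lower quartile) and -253.5 bp (upper quartile), while 8 of the mitochondrial ones lay near the 5′ end and 5 were spread from -344 to -962 bp. With replicate 2 alone the mitochondrial median was 233 bp and with a window of 2000 bp it was 521 bp. The cytosolic median was not computed under these settings, so they give no like comparison.

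**Figure D3:**
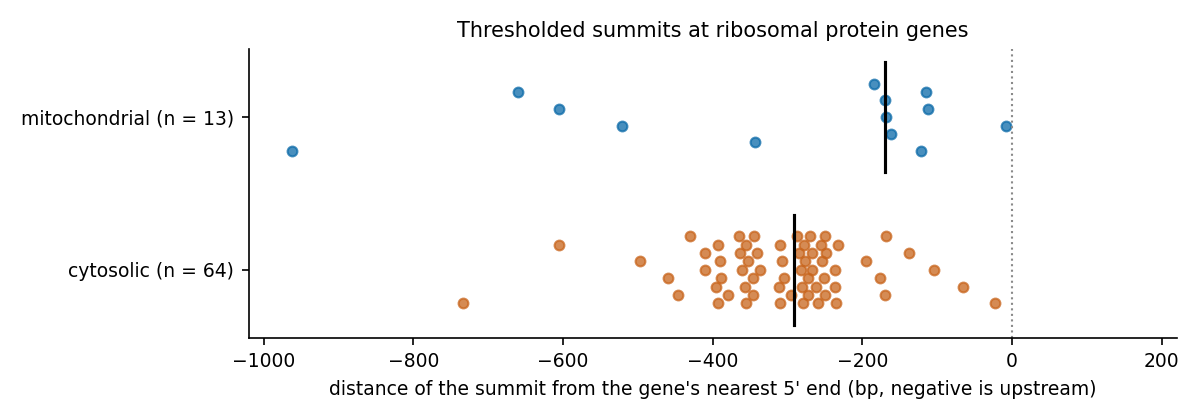
Distance (bp) of the thresholded summit from the nearest 5′ end of the gene for 13 mitochondrial (top) and 64 cytosolic (bottom) ribosomal protein genes; each point is a gene, spread vertically for legibility, and black bars are medians. The mitochondrial median was -170 bp and the cytosolic -291.5 bp.

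Promoters shared with a gene on the opposite strand were common. In 9 of the 13 windows (69.2%, 38.6 to 90.9) the summit also lay in another gene's window, and all 9 included a gene on the opposite strand. The share was 68.8% at cytosolic ribosomal protein genes and 53.5% over all bound genes. For 8 of the 13 (61.5%) the nearest 5′ end was that of the mitochondrial gene, against 57.8% of cytosolic and 72.5% of all bound genes. Counting only the nearest 5′ end therefore left 8 of 70 mitochondrial genes bound (11.4%), against 37 of 78 cytosolic genes (47.4%) and 6.64% of all genes.

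The replicates were compared at these genes. Among the 2177 strongest entries, replicate 1 had an overlapping one for all 13 and replicate 2 for 12. The summits in the 2 replicates lay within 50 bp of each other at 12 of 13, the exception being mrps-21 (130 bp). The thresholded list came from a procedure on reproducibility, but these 13 entries held the same places by signal in the pooled list. Among all genes with a pooled entry only, the highest signal was 35.85, just under the lowest thresholded signal of 35.91. At these genes the cut thus followed pooled signal, which draws on both replicates, so such agreement is partly built in. The replicate counts above are not given over all thresholded entries. Taken by windows in each replicate alone, 16 of 70 genes were bound in replicate 1 (22.9%, against 9.61% of all genes) and 12 in replicate 2 (17.1%, against 8.20%). Both replicates shared 11, which is 68.8% of the replicate 1 genes and 91.7% of the replicate 2 genes, against 64.7% and 75.9% over all protein-coding genes. The median log2 ratio of replicate 2 over replicate 1 was -0.09 at the 13 entries (SD 0.97) and 0.33 over 2153 thresholded entries (SD 0.79).

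The gene without an overlapping entry among the strongest of replicate 2 was mrpl-17, whose entry is shared with vbh-1, a DEAD-box RNA helicase gene. Its signal was 36.4 in replicate 1, at place 512, and 6.18 in replicate 2, at place 23747. The log2 ratio of -2.56 was the lowest of the 2153 thresholded entries present in both replicate lists. Replicate 2 had another, stronger entry in the mrpl-17 window, of 15.5 at -612 bp, which did not overlap the thresholded one.

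**Figure D4:**
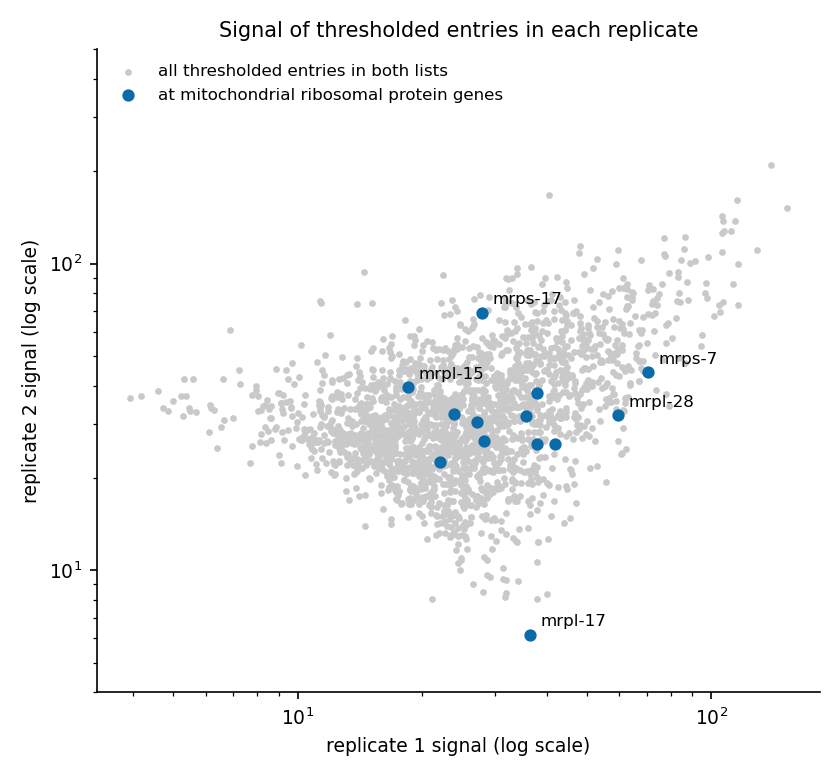
Signal in replicate 2 against replicate 1 (both on log scales, not scaled to each other) for all 2153 thresholded entries present in both lists (grey) and the 13 entries at mitochondrial ribosomal protein genes (blue), each taken as the strongest overlapping entry. The mrpl-17 entry stands apart with 36.4 in replicate 1 and 6.18 in replicate 2.

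Below the threshold, 28 genes had a pooled entry only, with a median signal of 22.9 (10.9 to 35.7). The strongest was mrpl-39, which missed the lowest thresholded signal of 35.9 at 35.7 and had 11.8 in replicate 1 and 21.3 in replicate 2. It was followed by mrpl-35 (33.2), mrps-18A (32.3), mrps-28 (32.2) and mrps-12 (30.7). On the other side of the threshold the nearest were mrpl-47 and mrpl-17. Genes among the strongest 2177 of a replicate without a thresholded entry were mrpl-35 (22.3 in replicate 1, 10.6 in replicate 2), mrpl-44 (17.5 and 8.35) and mrps-28 (23.3 and 8.46), which were so in replicate 1. In replicate 2 it was mrpl-16 (4.05 in replicate 1, 22.6 in replicate 2). All 4 were strong in a single replicate, as were 499 of the 509 such genes over the whole annotation. Replicate values in this paragraph are those of the strongest entry in the window, which need not be the same site. For mrpl-44 the summits lay at -268 bp in replicate 1 and -801 bp in replicate 2. For mrpl-16 they lay at -170 and -296 bp.

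The edge of the window also decided some genes. A thresholded summit lay 1 bp beyond the window of mrps-28, with a signal of 121 in an intron of Y43F8C.7. For mrpl-23 it lay 34 bp beyond, with 61.1, in an intron of fars-1, a cytosolic phenylalanyl-tRNA synthetase gene, yet its nearest 5′ end was that of mrpl-23. The same held at 273 bp beyond for mrps-26 (47.1, in an intron of prmt-5). At mrps-6 (168 bp beyond), mrpl-48 (182 bp) and mrps-18.C (328 bp) the nearest 5′ end was that of rpn-8, vps-37 and T14B4.3. With a window of 2000 bp the count was 19 of 70 (27.1%), against 11.8% of all genes, and with 500 bp it was 9 (12.9%), against 7.46%.

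No entry of the pooled or replicate lists lay in the window of 21 genes (30%), against 39.7% of all protein-coding genes. These were mrpl-4, mrpl-21, mrpl-23, mrpl-24, mrpl-30, mrpl-38, mrpl-42, mrpl-46, mrpl-48, mrpl-50, mrpl-51, mrpl-53, mrps-5, mrps-9, mrps-14, mrps-18.C, mrps-22, mrps-26, mrps-27, mrps-30 and mrps-33, where mrps-18.C on chromosome II is a different gene from mrps-18C on III. Any entry at all in the full replicate lists was found for 41 genes in replicate 1 (58.6%, against 44.7% of all genes) and 44 in replicate 2 (62.9%, against 43.0%). The remaining 8 of the 29 genes without a pooled entry had replicate entries with signals between 4.11 and 10.6. They were mrpl-2, mrpl-9, mrpl-10, mrpl-22, mrpl-34, mrpl-54, mrps-2 and mrps-11.

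Genes were also counted by their place among neighbours. A run was defined as a row of neighbouring protein-coding genes on the same strand with gaps of at most 500 bp, a stand-in for an operon made from positions alone. Of the 70 genes, 41 were single or the first of a run, and 12 of these were bound (29.3%, 16.1 to 45.5), against 10.1% of all single or first genes. These 12 were 92.3% of the 13 bound genes, near the 88% over all bound protein-coding genes. The 29 later genes had 1 bound, mrps-21 (3.45%, 0.0873 to 17.8), against 5.43% of all later genes. The 2 intervals overlapped at their edges, and the count of later genes was 2 with replicate 1 alone and 0 with replicate 2 alone. In the pooled list 33 of the 41 (80.5%, against 37.4%) and 8 of the 29 (27.6%, against 33.0%) had an entry. Among cytosolic ribosomal proteins 70 of the 78 genes were single or first.

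For the later genes the window of the first gene of the run was examined. It held a thresholded entry for 17 of the 29 (58.6%, 38.9 to 76.5), against 19.3% of all later protein-coding genes. These were 16 distinct entries with a median signal of 64.1 (37.2 to 216). Among later cytosolic ribosomal protein genes the count was 4 of 8 (50%, 15.7 to 84.3), and the 2 intervals overlapped. In the pooled list the mitochondrial count was 25 of 29 (86.2%), against 49.8%. In the thresholded list the first gene was bound for 7 of 17 large-subunit and 10 of 12 small-subunit later genes. Counted this way, with each gene judged by the first gene of its run, 29 of 70 mitochondrial ribosomal protein genes were at a bound start (41.4%), against 12.0% of all genes, and both subunits stood alike at 17 of 41 and 12 of 29. With a gene's own window also counted, the mitochondrial share was again 41.4% (29.8 to 53.8). By that count 87.2% of cytosolic ribosomal protein genes (77.7 to 93.7) and 12.7% of all genes were bound. Which of these runs are transcribed as operons was not tested, and sharing a run does not show that an entry acts on the later gene.

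**Figure D5:**
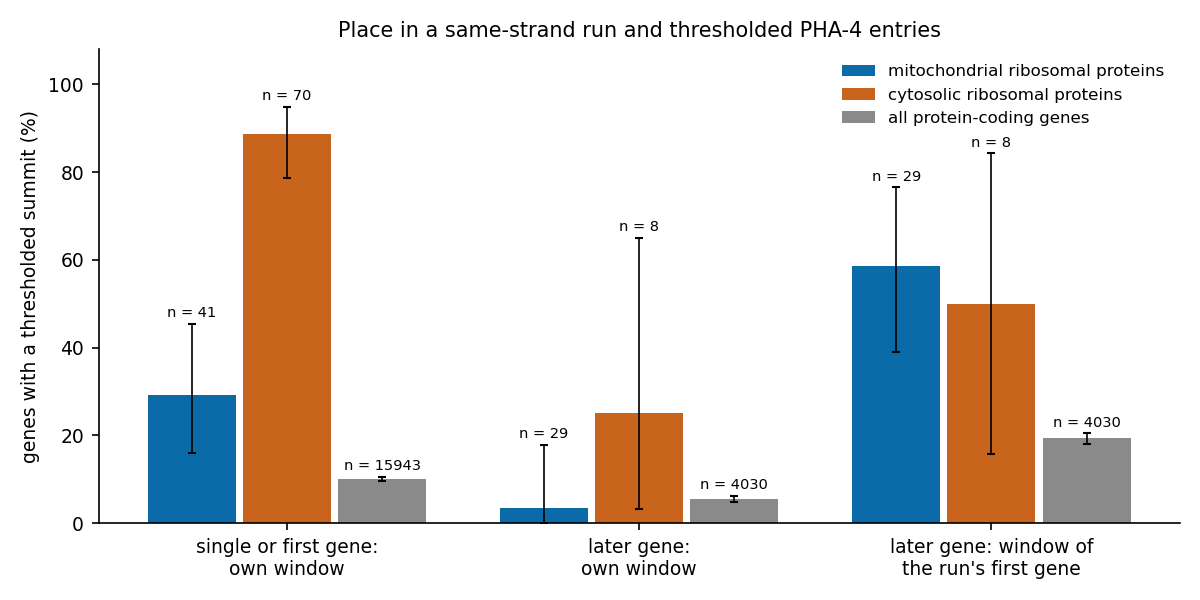
Share of genes (%) with a thresholded summit in their own window, for single or first genes and for later genes of same-strand runs, and share of later genes whose run's first gene has one; lines are exact binomial 95% intervals over genes. For later mitochondrial genes the own-window share was 3.45% and the first-gene share 58.6%, against 5.43% and 19.3% over all later genes. For the 8 later cytosolic genes these shares were 25% and 50%.

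The first genes were of many kinds. The strongest entry stood at rpn-3, a proteasome regulatory subunit gene followed by mrpl-32, with a signal of 216 at -199 bp. It was followed by clsp-1, the claspin gene before mrpl-54 (134), and natc-1, a subunit gene of an N-terminal acetyltransferase before mrps-2 and mrpl-4 (106). The translation initiation factor gene eif-3.E preceded mrps-30 (76.7), misc-1, a mitochondrial carrier gene, preceded mrpl-41 (76.0), and the ESCRT gene vps-37 preceded mrpl-48 (71.8). W04D2.4 (69.6) preceded mrps-11 and F13G3.7 (64.1) preceded mrpl-13.

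The gene atp-2, which encodes the beta subunit of the mitochondrial ATP synthase, preceded prmt-5 and mrps-26 with a signal of 61.1. Weaker entries stood at uev-1 (52.1, before mrps-27), the Numb gene num-1 (51.9, before mrps-12), F21D5.7 (47.9, before mrps-33), T14B4.3 (47.1, before mrps-18.C), F29B9.11 (44.6, before mrps-21), the nuclear RNAi gene nrde-2 (40.1, before mrps-14) and the chaperonin gene cct-2 (37.2, before mrpl-50). Their summits lay between -962 and -6411 bp from the 5′ end of the mitochondrial gene. Of the 21 genes without any entry in their own window, mrpl-4, mrpl-48, mrpl-50, mrps-14, mrps-18.C, mrps-26, mrps-27, mrps-30 and mrps-33 had a bound first gene. The like share over all protein-coding genes without an entry was not counted. The first gene before mrps-5, the ER-associated degradation gene sel-1, had no thresholded entry.

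Among the bound genes, 7 were themselves the first of a longer run, namely mrpl-17, mrpl-37, mrpl-45, mrpl-47, mrpl-49, mrps-7 and mrps-17. That is 7 of the 18 mitochondrial genes at the head of a longer run (38.9%, 17.3 to 64.3), against 17.8% of all such genes. The other 5 bound genes outside later positions were single, out of 23 (21.7%, 7.46 to 43.7), against 8.40% of all single genes. Both intervals held the share of all such genes.

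By chromosome, 3 of 15 genes were bound on I, 2 of 12 on II, 4 of 22 on III, 3 of 11 on IV and 1 of 10 on V, and no mitochondrial ribosomal protein gene lies on X. Over all protein-coding genes the shares on the same autosomes were 12.1%, 8.67%, 13.0%, 8.81% and 5.89%.

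Sequence words were searched in the 201 bp around each summit, on both strands. TGTTTAC or TGTTTGC stood in 3 of 13 windows at mitochondrial ribosomal protein genes (23.1%), 6 of 61 at cytosolic ones (9.84%), 20.6% of all 2177 thresholded windows and 6.06% of windows of the same length at all protein-coding 5′ ends. The 3 were mrps-17, mrpl-28 and mrpl-45, and in each it was TGTTTGC. With replicate 1 alone the count was 5 of 16 windows. The centre of the word lay 12 bp from the summit at mrps-17 and 16 bp at mrpl-28, and mrpl-45 held it at 19 and at 37 bp. In the windows printed above, these are the capitals GCAAACA.

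The published PHA-4 consensus (a T, a purine, a pair of Ts, a G or T, a purine and a pyrimidine) stood in 6 of 13 windows (46.2%), against 61.1% of all thresholded windows and 48.0% at all 5′ ends. Both TGTTTAC and TGTTTGC are instances of it. The repeat GAGAGA stood in 3 of 13 (23.1%), at mrpl-15, mrpl-17 and mrpl-40, against 24.6% at cytosolic ribosomal protein genes, 47.7% of all thresholded windows and 14.0% at all 5′ ends. CTGCGTC stood in 2 of 13 (15.4%), at mrps-7 and mrpl-37, against 21% and 2.25%. The E2F-type word TTCCCGCC stood in 0 of 13, against 1.65% and 0.559%, and the GATA-type word TGATAA in 3 of 13 (23.1%), against 6.89% and 19.9%. GC content had a median of 39.8% in the 13 windows, 44.8% in all thresholded windows and 36.3% at all 5′ ends.

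Windows of the 28 pooled-only genes, 27 in number because mrpl-1 and mrps-24 share an entry, held TGTTTAC or TGTTTGC in 9 cases (33.3%), against 10.7% of all 21931 pooled windows. They held the PHA-4 consensus in 20 (74.1%), against 52.3%. The pooled windows differ from these in place and strength. Only 7913 of the 21931 lay in a promoter window. The median signal was 12.8 over all 21931 entries and 22.9 at the 28 genes. Over all protein-coding genes with a pooled entry only, the median of the strongest signal was 14.2. The 16 windows at the first genes of runs held TGTTTAC or TGTTTGC in 3 (18.8%) and GAGAGA in 2 (12.5%). Of the 1363 thresholded windows in any promoter, 20.7% and 41.2% held them. A word in a window is a match of letters and does not show that PHA-4 contacts it.

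Other nuclear genes for mitochondrial gene expression and respiration were counted in the same way. Of 9 mitochondrial translation and transcription factor genes 2 were bound (22.2%, 2.81 to 60), mma-1, an LRPPRC-type RNA-binding protein gene (63.5), and tufm-2, an elongation factor Tu gene (39.3). Of 9 mitochondrial aminoacyl-tRNA synthetase genes 1 was bound, ears-2 (153, at -20 bp). Subunits and assembly proteins of the respiratory chain and ATP synthase had 18 of 39 bound (46.2%, 30.1 to 62.8), led by the cytochrome oxidase gene cox-5B (163, at -19 bp). Protein import genes had 7 of 17 (41.2%, 18.4 to 67.1), led by the chaperonin gene hsp-60 (106.0). The share of all genes was 9.16%. The interval of the mitochondrial ribosomal proteins (10.3 to 29.7%) ended just below that of the respiratory chain genes and overlapped those of the other lists.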

How the data were processed

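PHA-4 ChIP-seq peak lists on ce11 from 2 biological replicates of 1 group were used. In the labels the antibody is given as pha-4 and the target as the eGFP fusion. Per the file listings deposited with each library, the authors called each list against 2 control files, and the thresholded list came from the irreproducible discovery rate procedure. Aligner, caller and threshold were not given in the sources used here. The deposited signal value of each entry (column 7) was taken as it stands, and lists on ce10 were not used here. Replicates came from separate biosamples.

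Summits were set against Ensembl release 115 on the same assembly. Replicate signals of thresholded entries are those of the strongest entry overlapping by 1 bp or more. For genes without a thresholded entry they are those of the strongest entry in the promoter window. Single-replicate counts used the 2177 strongest entries. Named genes were all bound members, those strong in a replicate only, the 5 strongest pooled-only, those without entries, summits within 500 bp of the window, neighbours, run heads, 3 cytosolic genes, pha-4 and the leading gene of each pathway list. Names listed but not found in the annotation were gfm-2, mtif-2, mtif-3, mtrf-1, wars-2, cars-2, mars-2 and vars-2. Members, lists and rules were chosen with earlier results of these data known. No test between groups was possible with 1 group, and genes are not replicates, so results are counts and medians. Code was tested on simulated data. Python 3.11.15 was used with matplotlib 3.10.9, scipy 1.17.1 and numpy 2.4.6.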

Additional observations from a re-analysis of the deposited data

How the results depend on the processing

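The count of 13 bound mitochondrial ribosomal protein genes stayed within 1.5 times under 6 of 8 alternatives. It was 41 with all pooled entries and 8 with the nearest 5′ end only, and 16 and 12 with replicate 1 or replicate 2 alone. Its interval held the share of all genes with the nearest 5′ end only and with 500 bp, and in none of the other 5 alternatives that have such a share. The 64 cytosolic genes became 37 with the nearest 5′ end only, and 64 and 50 with replicate 1 or replicate 2 alone. Genes at a bound run start numbered 29, with 58 from all pooled entries, 32 and 26 with replicate 1 or replicate 2 alone, and 26 and 29 for gaps of at most 300 and 1000 bp. The 17 later genes with a bound first gene, counted with alternatives chosen after seeing the data, became 10 among the stronger 1088 thresholded entries (34.5%, against 11.1% of all later genes) and 18 and 14 with replicate 1 or replicate 2 alone. The later genes bound in their own window ranged between 0 and 8. The median signal of 64.5 was 60.2 with 2000 bp, 66.2 among the stronger 1088 and 68.1 with the nearest 5′ end only. The median distance of 170 bp was 521 bp with 2000 bp, and 166.5 and 233 bp with replicate 1 or replicate 2 alone. TGTTTAC or TGTTTGC stood in 5 of 16 windows from replicate 1 and 3 of 13 from replicate 2, and GAGAGA in 4 of each. No paired analysis was possible because all samples form 1 group. Depth is unknown, so a gene without an entry may lie below detection.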

Other observations

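A further word was noticed in the printed windows and counted afterwards, so its count is a description with no test. GCGCTCC, on either strand, stood in 5 of the 13 windows at mitochondrial ribosomal protein genes (38.5%), at mrpl-37, mrpl-45, mrpl-47, mrpl-49 and mrpl-55. It stood in 6 of 61 windows at cytosolic ribosomal protein genes (9.84%), in 8.07% of the 1363 thresholded windows in any promoter, in 6.02% of all thresholded windows and in 1.01% of windows at all protein-coding 5′ ends. All 5 were large-subunit genes, as were 10 of the 13 genes whose windows were searched. In 4 of them the centre of the word lay 17 bp or less from the summit, namely 1 bp at mrpl-55, 12 bp at mrpl-47, 14 bp at mrpl-45 and 17 bp at mrpl-49, while at mrpl-37 it lay 62 bp away. The 27 pooled-only windows held it in 2 cases (7.41%). The stretches below are written in the direction of the word, which is in capitals, at mrpl-49 (chrV:12728437-12728467, plus strand), mrpl-37 (chrII:13575775-13575805, plus strand), mrpl-45 (chrIII:1202323-1202353, minus strand) and mrpl-55 (chrIV:443859-443889, plus strand).
mrpl-49: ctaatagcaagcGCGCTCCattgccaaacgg
mrpl-37: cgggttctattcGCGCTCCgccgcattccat
mrpl-45: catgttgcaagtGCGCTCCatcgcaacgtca
mrpl-55: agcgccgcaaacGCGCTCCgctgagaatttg

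Of the later genes in runs, mrpl-44 and mrps-12 had sizeable pooled entries of their own, of 30.4 at -262 bp and 30.7 at -122 bp. The first gene before mrpl-44, mccc-2, had no thresholded entry, and that before mrps-12, num-1, had one of 51.9.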
